A study of Mus musculus with 18 samples.

Results

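Promoter accessibility was examined at neuropeptide Y and 3 of its receptors: Npy, which encodes the peptide, and Npy1r, Npy2r and Npy5r, which encode receptors of the Y family. All windows named after these genes were taken, which gave 1 window for each and 4 of the 26065 windows measured. The genes were chosen by the measured levels of earlier analyses of these libraries, in which Npy1r differed between regions in opposite directions in somatostatin-positive (SOM+) and in bulk nuclei. The region differences below are therefore given as a description, with no test.

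Neuropeptide Y is a peptide co-transmitter of GABAergic interneurons, many of which in cortex also make somatostatin. Its receptors couple to Gi/o proteins, which lower cyclic AMP, open inwardly rectifying potassium channels and hold back presynaptic calcium channels. The receptor encoded by Npy1r is mostly postsynaptic and is known for the anxiety-reducing action of the peptide in the amygdala. The one encoded by Npy2r is mostly presynaptic and limits further release, and the one encoded by Npy5r is often made by the same cells as that of Npy1r.

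The assay was ATAC-seq, in which Tn5 transposase cuts open chromatin, and each value counts reads in a window that reaches 1 kb to both sides of a gene's start (mouse build mm9). All mice were C57BL/6J, 2 to 3 months old, and each library held 50000 sorted nuclei from the central amygdala (CeA) or from cortex, which the protocol names as prefrontal. SOM+ nuclei were gated on the nuclear GFP of SOMH2B-GFP mice labelled WT, and came from control and fear-conditioned mice, with 2 libraries for each region and treatment. Bulk nuclei were stained with NucBlue, had no GFP gate and came from mice labelled as control for treatment, with 3 libraries per region of mice with an Erbb4 KO in SOM+ cells and 2 of WT mice. Bulk WT libraries have the KO entry as their genotype label, so WT was read from the titles. The driver that deletes Erbb4 or makes the GFP, and the number of mice behind a library, are not stated by the labels. The protocol calls the sorted aliquots technical replicates, so the p-values measure the spread between libraries, which may be technical.

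The Npy window lies at chr6:49771709-49773708, the Npy2r window at chr3:82351008-82353007, the Npy5r window at chr8:69210994-69212993 and the Npy1r window at chr8:69220321-69222320 (mm9). Each spans 2000 bases centred on an annotated start site, so it holds promoter sequence and the start of the gene, and levels can be compared between the 4 genes per length. Npy1r and Npy5r are neighbours that are transcribed away from each other. Their window centres are 9327 bases apart, with 7327 bases between the windows, so the windows share no position.

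The 250 bases before each start site are shown because they are the sequence at the centre of the windows on which every value below rests. They were taken from RefSeq for GRCm38.p6, where all 4 genes matched by symbol, and are written 5′ to 3′ on the strand of the gene. Capitals mark matches to a motif. The regions are chr6:49822460-49822709 on the plus strand for Npy, chr8:66697172-66697421 on the plus strand for Npy1r, chr3:82548086-82548335 on the minus strand for Npy2r and chr8:66688095-66688344 on the minus strand for Npy5r.
Npy: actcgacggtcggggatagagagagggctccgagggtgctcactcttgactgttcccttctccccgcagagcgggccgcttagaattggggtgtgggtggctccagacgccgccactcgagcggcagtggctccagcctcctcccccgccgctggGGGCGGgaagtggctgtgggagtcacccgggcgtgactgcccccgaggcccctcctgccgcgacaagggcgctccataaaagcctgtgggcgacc
Npy1r: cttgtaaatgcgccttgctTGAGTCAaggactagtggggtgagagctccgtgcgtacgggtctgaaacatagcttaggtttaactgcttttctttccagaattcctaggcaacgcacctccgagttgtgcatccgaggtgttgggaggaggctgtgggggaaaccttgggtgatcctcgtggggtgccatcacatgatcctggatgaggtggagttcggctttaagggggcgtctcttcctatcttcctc
Npy2r: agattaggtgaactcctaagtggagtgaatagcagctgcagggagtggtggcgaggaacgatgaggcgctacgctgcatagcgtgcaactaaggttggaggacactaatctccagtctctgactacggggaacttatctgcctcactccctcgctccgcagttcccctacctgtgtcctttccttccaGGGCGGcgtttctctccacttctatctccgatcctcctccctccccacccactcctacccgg
Npy5r: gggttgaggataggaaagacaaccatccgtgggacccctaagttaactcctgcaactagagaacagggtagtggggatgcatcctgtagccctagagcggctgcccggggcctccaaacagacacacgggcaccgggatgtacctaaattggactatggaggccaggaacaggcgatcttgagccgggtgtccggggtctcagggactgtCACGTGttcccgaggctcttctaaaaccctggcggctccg

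The Npy promoter was the richest of the 4 in G and C, with 69.2% GC and 21 CG dinucleotides, against a median of 52.4% and 6 over 32851 mouse promoters of the same length. The receptor promoters held 10 CG in Npy1r, 12 in Npy2r and 12 in Npy5r, at 53.6%, 56.8% and 58.8% GC. Each lay above the median promoter on both measures. On both strands, 6 motifs were searched: TGACGTCA (CRE), TGANTCA (AP-1), CACGTG (E-box), GGGCGG (GC box), TATAAA (the TATA box) and TAATTA (homeobox). They occurred in 1.55%, 6.75%, 6.02%, 32.7%, 12.4% and 4.84% of all promoters, in that order. Each of the 4 promoters held 1 match, so no matches overlapped. Npy held the GC box, starting at position -95 from the start site, and Npy2r held one at -62. Npy1r held the AP-1 motif at -231 and Npy5r the E-box at -40. The adjacent genes Npy1r and Npy5r thus shared none of the searched motifs in these bases. A match is a run of letters and no measured binding site.

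A library had 2648959 to 7727263 promoter counts in SOM+ nuclei of the CeA and 9452310 to 14668694 in those of cortex, and bulk libraries had 2751769 to 7220446 (CeA) and 5146020 to 7939962 (cortex). The members had between 32 and 545 counts in a library. All 4 passed the filter on low counts in each fit. Y-linked promoters went against the labelled sex in 4 bulk libraries: KO 2 of both regions, labelled male, had 0 such counts, and WT 1 of both regions, labelled female, had 243 in CeA and 627 in cortex. The 8 SOM+ libraries matched their labels. Labelled sex is a term of the fits that hold bulk libraries, and the member differences fitted on bulk libraries are given with all libraries and without these 4 of doubtful sex. The fits without these 4 have no sex term and keep WT 2 as the only WT library of each region. Levels, ratios within a library, lists, neighbouring windows and likeness are given with all libraries. The median level of olfactory receptor promoters, which are closed in brain, was 2.46 CPM in CeA SOM+, 1.34 CPM in cortex SOM+, 3.62 CPM in CeA bulk and 4.01 CPM in cortex bulk nuclei. The Erbb4 promoter was at 28.8 to 39.6 CPM in CeA KO against 35.2 to 37.5 CPM in CeA WT libraries, and at 26.0 to 41.4 CPM in cortex KO against 33.6 to 45.8 CPM in cortex WT libraries, but a promoter window in bulk nuclei is no check of a deletion in SOM+ cells alone. Markers of the sorted cells were mixed: Gad1, a GABA-synthesizing enzyme, stood at 90.1 CPM in SOM+ control and 35.5 CPM in bulk WT, whereas the Sst promoter itself stood at 18.2 CPM in both.

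The ligand was most accessible in cortical SOM+ nuclei. Levels are given in CPM, promoter counts over the TMM-scaled promoter total of the library, in the usual unit of edgeR. In cortex SOM+ nuclei the Npy promoter was at 36.9 and 29.3 CPM in the 2 control libraries and at 36.0 and 35.8 CPM in the 2 fear-conditioned ones. In CeA SOM+ nuclei it was at 13.5 and 11.3 CPM in control and at 13.2 and 10.5 CPM in fear-conditioned libraries. Every cortical SOM+ library was above every CeA one, and the groups did not overlap. Bulk nuclei lay between them. Npy was at 19.3, 15.5 and 17.7 CPM in CeA KO, 14.1 and 18.9 CPM in CeA WT, 18.0, 22.9 and 26.2 CPM in cortex KO, and 19.4 and 25.3 CPM in cortex WT. The ranges of the 2 regions overlapped in bulk nuclei, although the cortical mean was higher. In order of the group means, cortex SOM+ fear and control came first, then cortex bulk WT and KO, CeA bulk KO and WT, and last CeA SOM+ control and fear. In that order, the steps from cortex SOM+ control to cortex bulk WT and from CeA bulk WT to CeA SOM+ control had ranges that did not overlap, and the other neighbours overlapped.

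Npy1r, the gene of the main postsynaptic receptor, followed another order. In CeA SOM+ nuclei it was at 23.7 and 18.9 CPM in control and at 18.5 and 21.7 CPM in fear-conditioned libraries. In cortex SOM+ nuclei it was at 14.3 and 8.97 CPM in control and at 16.5 and 10.9 CPM in fear-conditioned libraries. Among SOM+ libraries the CeA ones were thus all above the cortical ones. In bulk nuclei Npy1r was at 55.3, 41.2 and 46.2 CPM in CeA KO, 32.7 and 41.1 CPM in CeA WT, 56.8, 60.8 and 88.9 CPM in cortex KO, and 59.4 and 85.7 CPM in cortex WT. Here every cortical library was above every CeA one, and every bulk library was above every SOM+ one. From highest to lowest mean the groups ran cortex bulk WT, cortex bulk KO, CeA bulk KO, CeA bulk WT, CeA SOM+ control, CeA SOM+ fear, cortex SOM+ fear and cortex SOM+ control. The WT and KO libraries of cortex overlapped, as did control and fear libraries within each region, and the other neighbours did not.

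Npy2r, the gene of the presynaptic receptor, was the least even of the 4 between libraries of a group. In CeA SOM+ nuclei it was at 30.0 and 24.0 CPM in control and at 20.9 and 25.6 CPM in fear-conditioned libraries. In cortex SOM+ nuclei it was at 20.7 and 13.9 CPM in control and at 19.8 and 14.7 CPM in fear-conditioned libraries. The CeA libraries were again above the cortical ones, by a narrow margin between the lowest CeA and the highest cortical value. In bulk nuclei Npy2r was at 47.7, 29.3 and 40.2 CPM in CeA KO, 37.6 and 42.1 CPM in CeA WT, 30.8, 38.3 and 78.5 CPM in cortex KO, and 43.6 and 85.9 CPM in cortex WT. Single cortical libraries, KO 3 and WT 2, were far above the rest, and the regions overlapped in bulk nuclei. The within-group SD of log2 CPM, pooled over the 8 groups, was 0.43 for Npy2r, 0.35 for Npy5r, 0.32 for Npy1r and 0.22 for Npy. By mean, the order was cortex bulk WT, cortex bulk KO, CeA bulk WT, CeA bulk KO, CeA SOM+ control, CeA SOM+ fear, cortex SOM+ control and cortex SOM+ fear. In that order, the ranges of CeA SOM+ fear and cortex SOM+ control were apart and all other neighbours overlapped.

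Npy5r, the neighbour of Npy1r, separated SOM+ from bulk nuclei more than it separated regions. In CeA SOM+ nuclei it was at 17.7 and 12.7 CPM in control and at 12.8 and 13.2 CPM in fear-conditioned libraries. In cortex SOM+ nuclei it was at 14.6 and 9.68 CPM in control and at 15.3 and 12.0 CPM in fear-conditioned libraries. The regions overlapped in SOM+ nuclei. In bulk nuclei Npy5r was at 47.2, 37.4 and 39.8 CPM in CeA KO, 27.6 and 41.1 CPM in CeA WT, 37.8, 65.5 and 89.0 CPM in cortex KO, and 61.5 and 80.2 CPM in cortex WT. Cortex KO 1 was as low as the CeA libraries, so the regions overlapped in bulk nuclei too, while every bulk library was above every SOM+ one. The 4 bulk groups took the first places in the order of means, cortex WT, cortex KO, CeA KO and CeA WT, followed by CeA SOM+ control, cortex SOM+ fear, CeA SOM+ fear and cortex SOM+ control. The only neighbours apart in this order were CeA bulk WT and CeA SOM+ control.

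**Figure D1:**
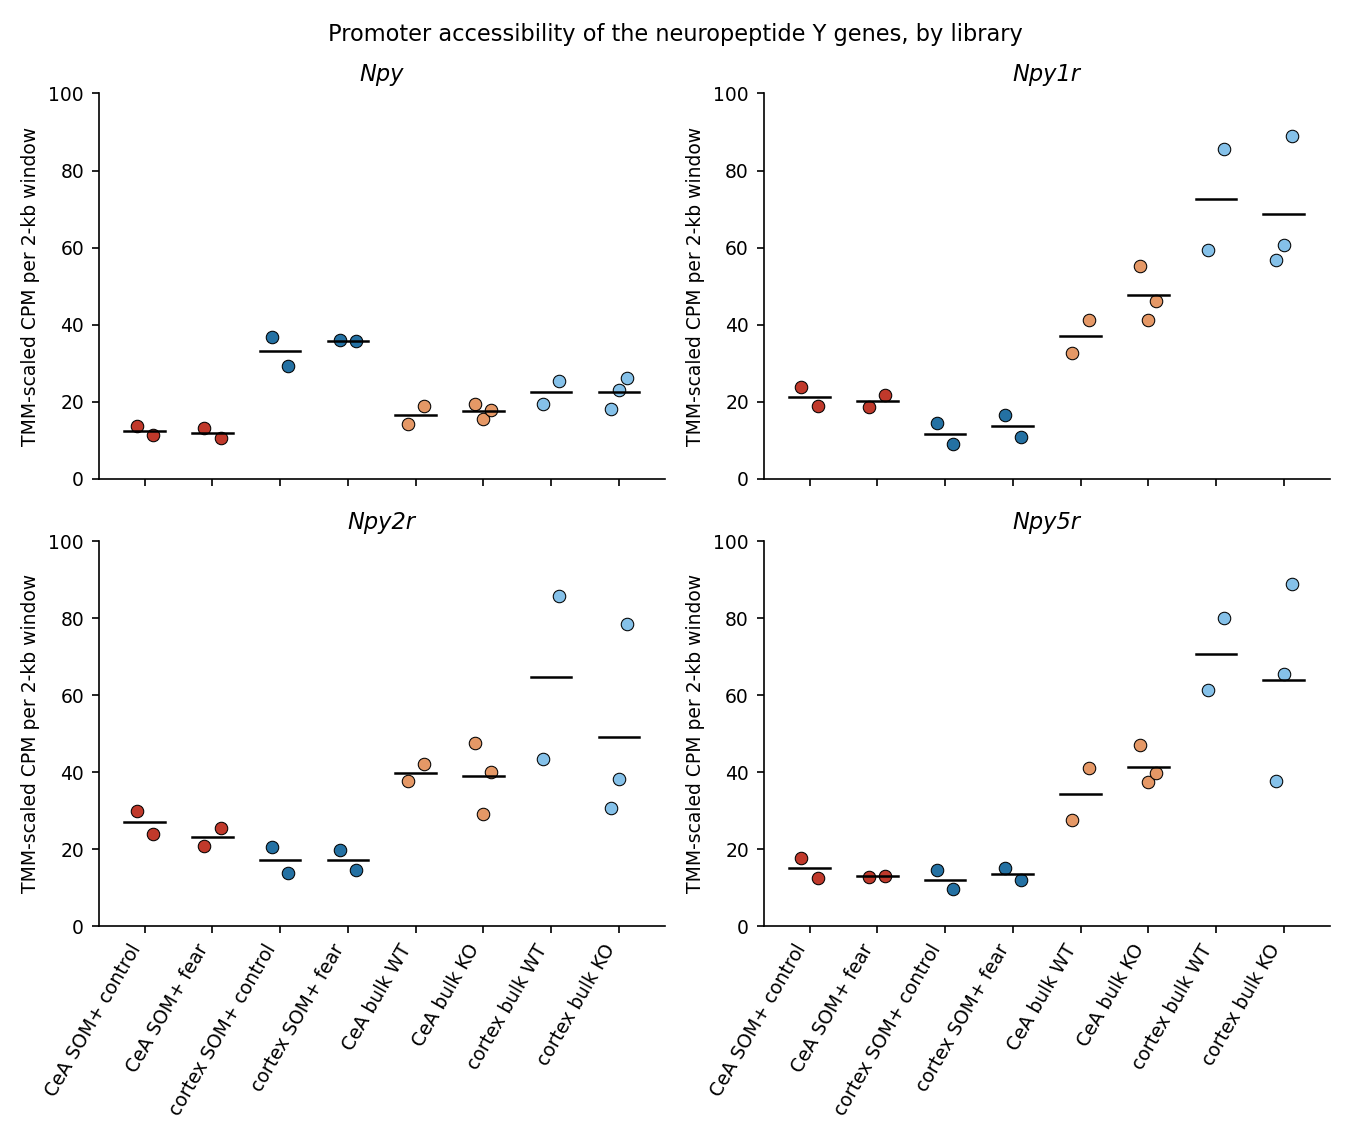
Promoter accessibility of Npy, Npy1r, Npy2r and Npy5r in each library, as TMM-scaled CPM per window of 2000 bases on linear axes that start at 0, for the 8 groups; points are libraries and bars are group means. Npy is highest in cortex SOM+ nuclei, at 29.3 to 36.9 CPM, and the 3 receptor genes are highest in cortex bulk nuclei, where Npy1r reaches 88.9 CPM.

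Among windows of this length the members took middle to high places. Of 24630 such windows, the share with a lower mean level than Npy1r was 83.4% in cortex bulk nuclei and 44.9% in cortex SOM+ nuclei. For Npy the share was 55.1% in cortex bulk and 59.5% in cortex SOM+ nuclei, and 45.1% in CeA SOM+ nuclei. At its lowest over the 4 combinations of region and nuclei, in CeA bulk nuclei, the Npy level was 4.72 times the median olfactory receptor promoter. The receptor genes were 8.43 to 10.2 times that median for Npy1r and Npy2r in CeA SOM+ nuclei, and 9.48 and 12.9 times in cortex SOM+ nuclei. Npy5r was 5.74 times the median in CeA SOM+ and 9.64 times in cortex SOM+ nuclei. Relative to closed promoters, Npy1r and Npy2r therefore stood no lower in cortex SOM+ than in CeA SOM+ nuclei, while in CPM they stood lower. The ratio of housekeeping (ribosomal protein) to olfactory receptor promoters was 27.3 ± 8.17 in CeA SOM+ (SD, n = 4) and 59.3 ± 9.25 in cortex SOM+ libraries (n = 4), against 14.8 ± 3.09 in CeA bulk and 11.7 ± 2.03 in cortex bulk ones (n = 5 each). The part of this difference in library quality in the member values was not tested.

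The rule of choice rested on the difference between CeA and cortex. In CPM, Npy1r and Npy2r were higher in CeA in SOM+ nuclei and lower in CeA in bulk nuclei. Pooled over treatment, Npy1r was at 20.7 ± 2.47 CPM in CeA and 12.7 ± 3.37 CPM in cortex SOM+ nuclei (SD, n = 4 each), a log2 difference of 0.75 ± 0.19 (SE). In bulk nuclei it was at 43.3 ± 8.28 CPM in CeA and 70.3 ± 15.6 CPM in cortex (n = 5 each), a log2 difference of -0.72 ± 0.14. The 2 contrasts thus had opposite signs and differed by 1.46 ± 0.23 log2, SOM+ minus bulk. Relative to the median olfactory receptor promoter, however, Npy1r stood lower in CeA than in cortex in both kinds of nuclei. It was at 8.43 against 9.48 times that median in SOM+ nuclei and at 11.96 against 17.52 times in bulk nuclei. In bulk tissue, fewer nuclei of a type and less accessibility per nucleus cannot be told apart. Npy2r was at 25.1 ± 3.79 CPM in CeA and 17.3 ± 3.47 CPM in cortex SOM+ nuclei, a difference of 0.57 ± 0.17 log2, and at 39.4 ± 6.75 and 55.4 ± 25.0 CPM in bulk nuclei, a difference of -0.44 ± 0.20. Its contrasts also had opposite signs, and differed by 1.02 ± 0.28. Relative to the olfactory median, Npy2r too stood lower in CeA, at 10.2 against 12.9 times in SOM+ and 10.88 against 13.81 times in bulk nuclei. Npy5r differed between regions by less than its SE in SOM+ nuclei, at 14.1 ± 2.44 and 12.9 ± 2.56 CPM (0.18 ± 0.20 log2), and lower in CeA in bulk nuclei, at 38.6 ± 7.14 and 66.8 ± 19.6 CPM (-0.82 ± 0.17). The difference between its contrasts was 0.97 ± 0.26. Npy, the ligand, was lower in CeA in both kinds of nuclei, with 12.1 ± 1.46 against 34.5 ± 3.49 CPM in SOM+ (-1.44 ± 0.18 log2) and 17.1 ± 2.22 against 22.4 ± 3.58 CPM in bulk nuclei (-0.38 ± 0.16). Its contrasts differed by -1.10 ± 0.24, the only negative value of the 4.

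Values without overlap between regions were found for 3 of the 4 genes in SOM+ nuclei and for 1 in bulk nuclei, where 48.3% and 16.9% of all windows were called at an adjusted p under 0.05. The regions were likewise without overlap at 43.8% of all fitted windows in SOM+ and 10.1% in bulk nuclei, so such values were common in SOM+ nuclei. The difference between the contrasts was called for 41.5% of windows. Of 25101 windows in both fits, 6936 (27.6%) were higher in CeA in SOM+ and lower in CeA in bulk nuclei at any size, as Npy1r, Npy2r and Npy5r were, and 533 (2.12%) were called in both. Without the 4 bulk libraries of doubtful sex, the bulk difference was -0.75 for Npy1r, -0.62 for Npy2r, -0.71 for Npy5r and -0.30 for Npy, and the difference between the contrasts was 1.55, 1.25, 0.94 and -1.10 in that order. Under cyclic loess scaling the difference between the contrasts was 1.83 for Npy1r and -0.76 for Npy. Marker lists moved with the region too. The summed level of 9 glutamatergic markers was 131.8 to 172.1 CPM in CeA bulk and 419.8 to 543.1 CPM in cortex bulk libraries, and 80.8 to 100.9 CPM in CeA SOM+ and 106.9 to 154.6 CPM in cortex SOM+ libraries. That of 7 somatostatin and GABAergic markers was 219.1 to 305.5 CPM in CeA bulk, 114.6 to 124.7 CPM in cortex bulk, 289.9 to 322.9 CPM in CeA SOM+ and 442.9 to 487.2 CPM in cortex SOM+ libraries. No listed marker was at 0 in any library, and the part of these cells in the member values was not tested.

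**Figure D2:**
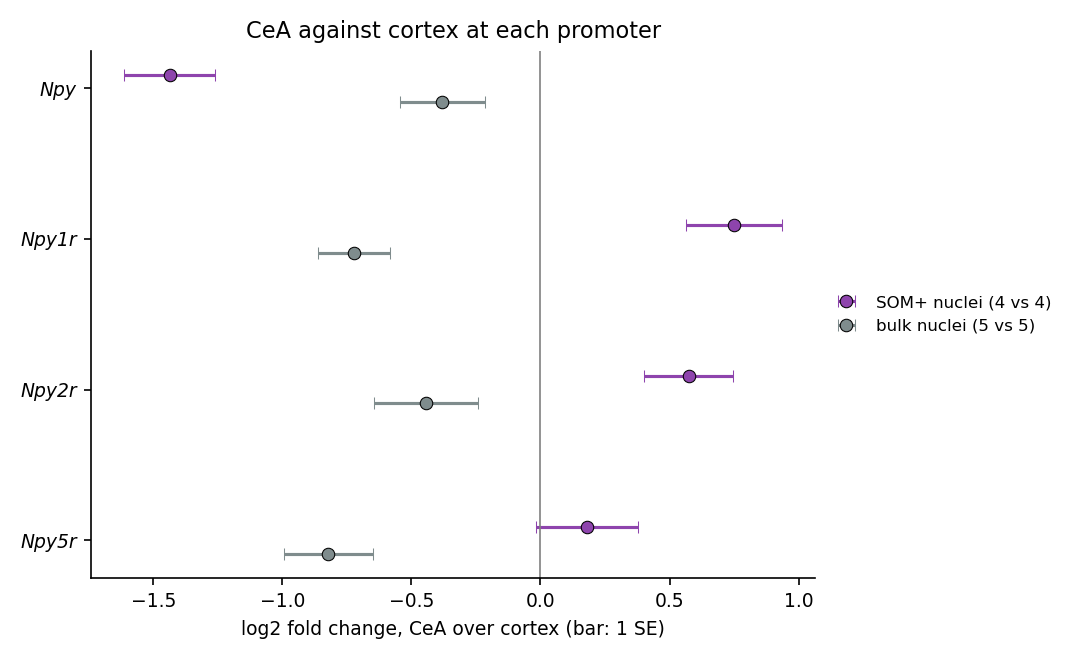
Log2 difference of CeA over cortex at each promoter, in SOM+ nuclei (4 against 4 libraries) and in bulk nuclei (5 against 5), with bars of 1 SE. Npy1r lies at 0.75 in SOM+ and -0.72 in bulk nuclei, while Npy is negative in both, at -1.44 and -0.38.

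Ratios of counts within a library need no scaling, and they separated the regions of SOM+ nuclei most. The Npy1r count was 1.76 and 1.67 times the Npy count in CeA SOM+ control libraries and 1.40 and 2.06 times in fear-conditioned ones. In cortex SOM+ nuclei the ratio was 0.389 and 0.307 in control and 0.458 and 0.303 in fear-conditioned libraries. The receptor promoter thus had more reads than the ligand promoter in each CeA library and fewer in each cortical one. In bulk nuclei the ratio was 2.53 ± 0.281 in CeA and 3.13 ± 0.305 in cortex (SD, n = 5 each). The Npy2r ratio was 2.09 ± 0.363 in CeA SOM+ and 0.500 ± 0.0707 in cortex SOM+ nuclei (n = 4 each), and 2.31 ± 0.289 and 2.40 ± 0.770 in CeA and cortex bulk nuclei. The Npy5r ratio was 1.16 ± 0.150, 0.371 ± 0.0464, 2.25 ± 0.203 and 2.94 ± 0.505 in the same order. Cortex SOM+ nuclei were thus the one setting in which the ligand promoter outweighed each receptor promoter. The ratio of the adjacent genes, Npy1r over Npy5r, was 1.48 ± 0.130 in CeA SOM+ and 0.974 ± 0.0762 in cortex SOM+ libraries, with no overlap, and 1.12 ± 0.0764 and 1.09 ± 0.235 in CeA and cortex bulk libraries. The Npy1r count relative to that of its neighbour was thus higher in CeA than in cortex SOM+ libraries.

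**Figure D3:**
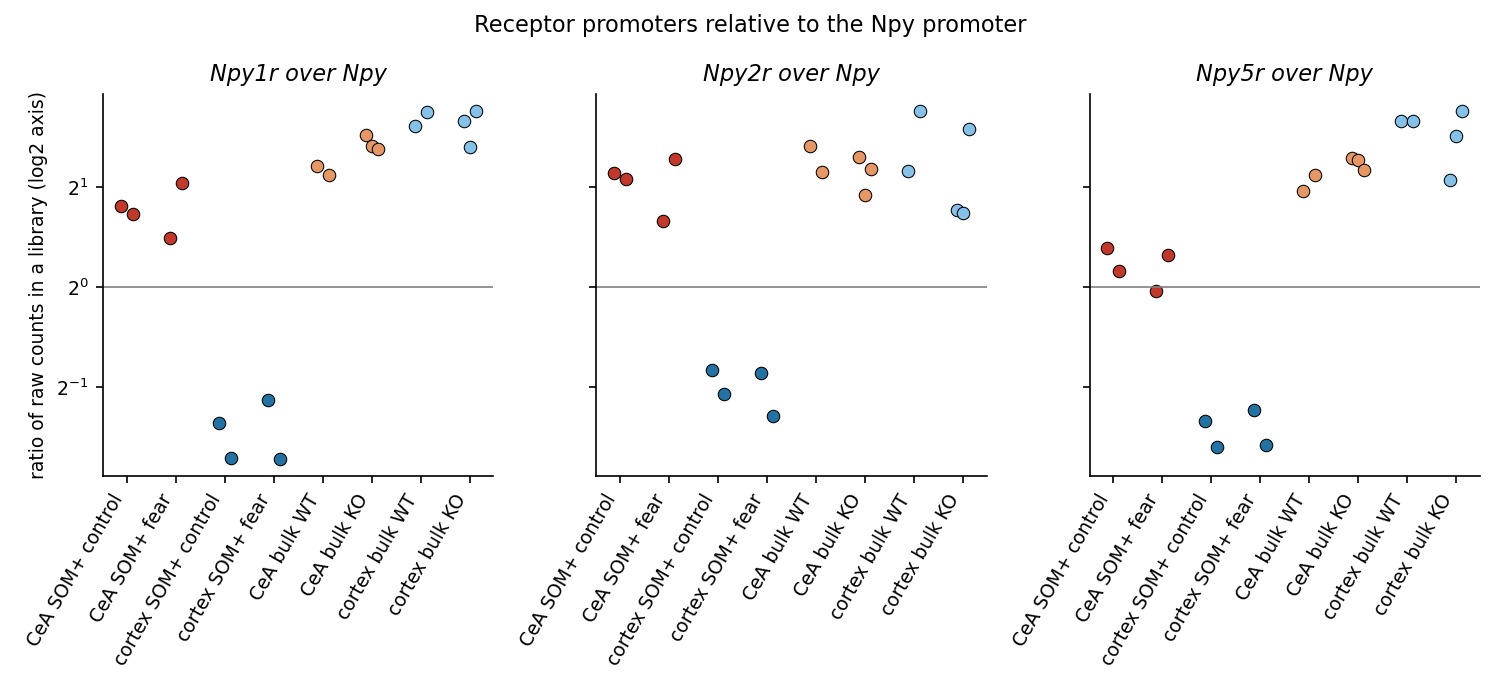
Ratio of the raw count of each receptor promoter to that of the Npy promoter in the same library, on a log2 axis, for the 8 groups; the line marks equal counts. For Npy1r all 4 cortex SOM+ libraries lie between 0.303 and 0.458, and all other libraries lie at 1.40 or above.

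The contrast between SOM+ control and bulk WT nuclei (4 libraries each) was taken as the mean over both regions, which the rule of choice did not use. In CPM, all 3 receptor promoters were lower in SOM+ nuclei, and the ligand promoter was not called. The median olfactory receptor promoter was lower too, at 1.82 CPM in SOM+ control and 4.00 CPM in bulk WT libraries. Relative to that median, Npy2r stood at 12.15 in SOM+ control against 13.06 in bulk WT libraries. Npy1r stood at 9.04 against 13.67, Npy5r at 7.5 against 13.14 and Npy at 12.48 against 4.86. The part of this background in the differences was not tested. Npy1r was at 8.97 to 23.7 CPM in SOM+ control (median 16.6) and at 32.7 to 85.7 CPM in bulk WT libraries (median 50.2), with no overlap. The log2 difference was -1.72 ± 0.17 (SE, adjusted p = 8.002e-11, edgeR's quasi-likelihood test with Benjamini-Hochberg adjustment). Npy5r had the largest difference of the 4, -1.86 ± 0.19, with 15.2 ± 3.59 and 12.1 ± 3.45 CPM in CeA and cortex SOM+ control against 34.4 ± 9.54 and 70.8 ± 13.2 CPM in the bulk WT libraries (SD, n = 2 each; adjusted p = 1.446e-10, same edgeR test). For Npy2r the difference was -1.23 ± 0.21, from 52.3 ± 22.5 CPM in bulk WT to 22.2 ± 6.69 CPM in SOM+ control (n = 4 each; adjusted p = 3.668e-06, same edgeR test). In these 3 genes each SOM+ control library was below each bulk WT library. How many of all windows were without overlap here was not counted, but 61.1% of them were called. Npy was at 22.8 ± 12.4 CPM in SOM+ control and 19.5 ± 4.58 CPM in bulk WT libraries, and its log2 difference was 0.08 ± 0.18 with a 95% interval of -0.28 to 0.45 (adjusted p = 0.700, same edgeR test). Its sign turned under total count scaling (-0.11) and cyclic loess (-0.11).

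Calls were common in this comparison: 61.1% of 25246 windows passed, 30.6% higher and 30.6% lower, so 3 of 4 members lower is to be read against that share. In size, the Npy5r and Npy1r differences exceeded 96.5% and 94.7% of all windows, that of Npy2r exceeded 81.1% and that of Npy 6.65%. Within CeA the differences were -0.80 ± 0.24 for Npy1r, -0.58 ± 0.30 for Npy2r, -1.16 ± 0.27 for Npy5r and -0.40 ± 0.27 for Npy. Within cortex they were -2.64 ± 0.24, -1.87 ± 0.29, -2.56 ± 0.26 and 0.57 ± 0.24 in the same order. The mean over regions for Npy thus joins a lower value in CeA with a higher one in cortex. With sex read from Y-linked promoters the differences were -1.56 for Npy1r, -1.05 for Npy2r and -1.74 for Npy5r. Without the 4 bulk libraries of doubtful sex they were -1.93, -1.49 and -2.09, with WT 2 as the only WT library per region. All 3 stayed called in both cases, with adjusted p from 8.03e-09 to 0.000132 in edgeR's test, and over all 26 alternatives the adjusted p of the 3 genes ran from 7.24e-21 to 0.000199. SOM+ and bulk nuclei came from different mouse lines and gates, so sort, line and cell makeup cannot be told apart here.

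Marker lists of other cells moved with this comparison. Called lower in SOM+ control nuclei were 8 of 9 glutamatergic markers (summed level 80.8 to 154.6 CPM against 141.3 to 543.1 CPM in bulk WT libraries), 5 of 6 astrocyte markers (34.7 to 53.3 against 111.1 to 135.7 CPM) and 6 of 7 oligodendrocyte markers (54.2 to 87.3 against 155.0 to 259.5 CPM). Also called lower were 4 of 6 CeA and striatal type markers (74.0 to 194.9 against 203.5 to 284.8 CPM) and 3 of 6 microglial ones (34.1 to 44.8 against 45.2 to 71.8 CPM). Of 5 markers of other interneurons that can hold the peptide, 2 were called lower (121.2 to 155.3 against 145.1 to 214.4 CPM). That list had a median of 0.05 log2, against -0.07 for all windows, of which 30.6% were called lower and 30.6% higher. Called higher were 5 of 7 somatostatin and GABAergic markers (289.9 to 487.2 against 115.0 to 243.9 CPM), and 1 of 5 vascular markers was higher and 1 lower. No listed marker was at 0 in a library, and the part of these cells in the receptor differences was not tested.

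Other genes of the pathway went both ways in the same comparison, by edgeR's quasi-likelihood test with Benjamini-Hochberg adjustment, in which 30.6% of all windows were called higher and 30.6% lower. Of 4 measured genes of the remaining peptide family and receptors, 2 were lower: Npy4r, the pancreatic polypeptide receptor, by -0.87 ± 0.26 log2 and Npy6r by -1.31 ± 0.40. Pyy and Ppy, which encode the related gut and pancreatic peptides, were not called, at 0.39 ± 0.35 and -0.09 ± 0.29. The list had a median of -0.48, against -0.07 for all windows. Of 8 genes of peptide processing and degradation, 2 were higher and 4 lower (median -0.51). Higher were Pcsk2, a prohormone convertase, by 0.54 ± 0.14, and Pcsk1n, which encodes a convertase inhibitor, by 0.64 ± 0.18. Lower were Mme, the neprilysin peptidase, by -1.51 ± 0.19, the amidating enzyme Pam by -1.05 ± 0.17, the carboxypeptidase Cpe by -0.77 ± 0.14 and the peptidase Dpp4 by -1.03 ± 0.26. Processing enzymes thus stood on both sides, and the called peptidases Mme and Dpp4, which break down or trim the peptide, were both lower.

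Of 20 genes of Gi/o coupling and its effectors, 6 were higher and 8 lower, close to the 30.6% of all windows called in each direction, and the median of -0.06 lay beside that of all windows. The G protein subunits Gnai2, Gnai3 and Gnb1 were higher by 1.09 ± 0.15, 0.91 ± 0.15 and 0.75 ± 0.17 log2, and so was Cacna1a, a presynaptic calcium channel, by 1.01 ± 0.14. Lower were Gnai1 by -0.78 ± 0.14, the adenylyl cyclases Adcy1 by -0.97 ± 0.15 and Adcy8 by -0.86 ± 0.17, and Rgs4, which shortens G protein signals, by -0.70 ± 0.13. Gnai2 and Gnai3 thus stood on the other side from Gnai1. Of 8 partner peptides and hormone receptors, 1 was higher and 4 lower (median -0.48). Pomc, the precursor of melanocortins, was higher by 0.75 ± 0.23. The galanin receptor Galr1 was lower by -1.47 ± 0.22, the melanocortin receptor Mc4r by -0.95 ± 0.19, Crh, the stress peptide, by -0.88 ± 0.20 and the leptin receptor Lepr by -0.78 ± 0.25. The 4 called lower were thus 3 receptor genes and the peptide gene Crh, and a split between receptors and peptides was not tested.

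Windows within 500 kb of the members were compared in the same way. Around Npy2r, all 10 neighbouring windows were called lower in SOM+ control than in bulk WT nuclei, where 30.6% of all windows were called lower. Their differences ran from -0.77 ± 0.16 log2 at Map9, which encodes a microtubule-associated protein, to -2.04 ± 0.28 at Fga, a fibrinogen gene that is made in liver. Gucy1a3 and Gucy1b3, the subunits of the nitric oxide receptor, stood at -1.35 ± 0.18 and -0.87 ± 0.17. The windows of Rbm46, Rbm46os and Lrat overlap in pairs and share reads, so the 10 are not separate measurements. Their levels also differed widely in SOM+ nuclei of CeA and cortex. Map9 was at 142.8 and 113.0 CPM, but Fga at 4.05 and 3.48 CPM and Fgg at 3.78 and 2.38 CPM. The median olfactory receptor promoter was at 2.46 and 1.34 CPM there. That median was itself lower in SOM+ control (1.82 CPM) than in bulk WT libraries (4.00 CPM), and its part in these calls was not tested. Around Npy1r and Npy5r, 2 of 4 neighbours were called lower, Tma16 at -1.23 ± 0.17 and Naf1 at -1.01 ± 0.17, and March1 and Tktl2 were not called, at -0.59 ± 0.26 and -0.73 ± 0.36. Around Npy none of 4 neighbours was called in edgeR's test, with differences from -0.40 ± 0.19 at Fam221a to 0.01 ± 0.16 at Dfna5.

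For the region difference, the windows beside Npy1r had the same pair of signs in part. Tma16 was at 0.30 ± 0.16 log2 in SOM+ and -0.46 ± 0.16 in bulk nuclei, and Naf1 at 0.39 ± 0.15 and -0.34 ± 0.16. March1 was at 0.87 ± 0.26 and -0.04 ± 0.23, and Tktl2 at 1.29 ± 0.36 and 0.06 ± 0.27. Higher in CeA in SOM+ and lower in bulk nuclei were thus 3 of 4 windows beside Npy1r, 7 of 10 beside Npy2r and 2 of 4 beside Npy, against 27.6% of all windows. Overlapping windows beside Npy2r share reads here too, and the difference from that share was not tested. The median olfactory receptor promoter had the same pair of directions in CPM. It was at 2.46 in CeA and 1.34 in cortex SOM+ nuclei, and at 3.62 and 4.01 in bulk nuclei. Beside Npy, no window came near its SOM+ difference of -1.44: the 4 neighbours lay between -0.07 and 0.21.

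**Figure D4:**
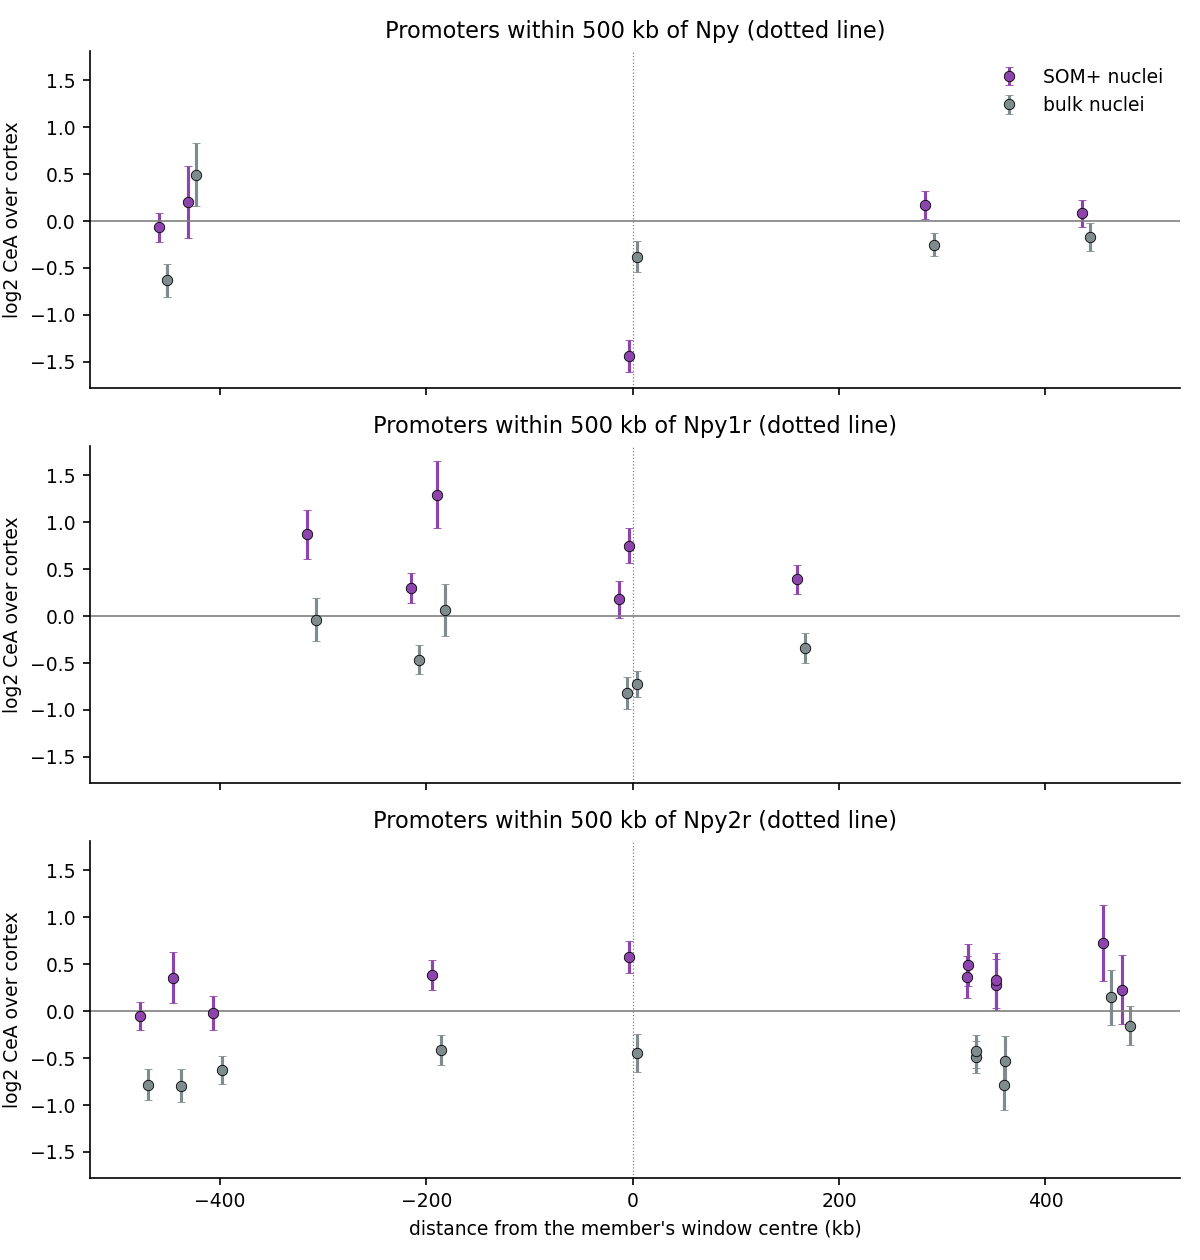
Log2 difference of CeA over cortex in SOM+ and bulk nuclei for promoter windows within 500 kb of Npy, Npy1r and Npy2r, against the distance from the member's window centre in kb, with bars of 1 SE; Npy5r appears beside Npy1r. The Npy point of SOM+ nuclei, at -1.44, stands below its 4 neighbours, which lie from -0.07 to 0.21.

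Fear conditioning was compared with control in SOM+ nuclei of each region, 2 libraries against 2, to see whether training altered accessibility. None of the 4 genes was called, and neither was any other of 25157 windows (0%) in edgeR's quasi-likelihood test in CeA, in cortex or for the difference between them. At an unadjusted p under 0.05 there were 598 windows in CeA (2.38%), 288 in cortex (1.14%) and 371 for the difference (1.47%), and DESeq2 and limma also called 0. In CeA the log2 difference was -0.04 for Npy (95% interval -0.58 to 0.50), -0.09 for Npy1r (-0.61 to 0.44), -0.22 for Npy2r (-0.70 to 0.27) and -0.23 for Npy5r (-0.80 to 0.34). In cortex it was 0.12 for Npy (-0.30 to 0.55), 0.25 for Npy1r (-0.26 to 0.75), 0.01 for Npy2r (-0.45 to 0.47) and 0.18 for Npy5r (-0.34 to 0.70). Every interval includes 0, and the widest, that of Npy5r in CeA, reaches down to -0.80. Adjusted p was 0.9998 in CeA and 1 in cortex for all 4 (edgeR's quasi-likelihood test with Benjamini-Hochberg adjustment). Control and fear libraries overlapped for each gene in both regions. In counts simulated with 2-fold changes, 43.4% of the changed windows were called in CeA and 63% in cortex, so calls can miss such changes. The difference between regions in the response was -0.16 ± 0.35 for Npy, -0.33 ± 0.37 for Npy1r, -0.23 ± 0.34 for Npy2r and -0.41 ± 0.39 for Npy5r. In the pathway lists, 0 of 4 family, 0 of 8 processing, 0 of 20 Gi/o and 0 of 8 partner genes were called in either region.

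Erbb4, a neuregulin receptor of interneurons, was deleted in SOM+ cells, and the effect was measured in bulk nuclei, 3 KO against 2 WT libraries per region. No member and no other of 25196 windows (0%) was called in edgeR's quasi-likelihood test in CeA, in cortex or for the difference between regions. Windows at an unadjusted p under 0.05 numbered 745 (2.96%), 823 (3.27%) and 590 (2.34%), and DESeq2 and limma called 0. In CeA the log2 difference, KO over WT, was -0.08 for Npy (95% interval -0.65 to 0.49), 0.18 for Npy1r (-0.31 to 0.66), -0.32 for Npy2r (-1.03 to 0.38) and 0.09 for Npy5r (-0.50 to 0.68). The Npy1r libraries of CeA did not overlap, but by a small margin, with the lowest KO library at 41.2 CPM and the highest WT one at 41.1 CPM. In cortex the difference was -0.18 for Npy (-0.73 to 0.36), -0.27 for Npy1r (-0.72 to 0.18), -0.64 for Npy2r (-1.27 to -0.000334) and -0.37 for Npy5r (-0.93 to 0.19). The Npy2r value had an unadjusted p of 0.0499, and all 4 had an adjusted p of 0.945 in edgeR's quasi-likelihood test with Benjamini-Hochberg adjustment. The KO by region difference was 0.10 ± 0.33 for Npy, 0.45 ± 0.28 for Npy1r, 0.31 ± 0.40 for Npy2r and 0.46 ± 0.34 for Npy5r. In the pathway lists again none of the 4 family, 8 processing, 20 Gi/o and 8 partner genes was called in either region. In counts simulated with 2-fold changes, 23% of the changed windows were called in each region, so calls miss most such changes.

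The KO values depended on the sex term and on single libraries. Among bulk libraries only WT 1 of each region is labelled female, against its Y-linked counts. The sex term of the bulk fit thus rests on WT 1 against WT 2. Without the sex term, the cortical difference was -0.40 for Npy2r, -0.15 for Npy5r, -0.07 for Npy1r and 0.005 for Npy. Cortex KO 3 was the highest cortical KO library for all 4 genes, and without it Npy2r was lower in KO by -1.13 log2 (adjusted p = 0.00153, edgeR's quasi-likelihood test) and Npy5r by -0.66 (adjusted p = 0.0499, same edgeR test), with 984 windows called in all. Npy1r was then at -0.50 (adjusted p = 0.122) and Npy at -0.31 (adjusted p = 0.574, both in edgeR's test). Without cortex WT 2, by contrast, Npy2r was at -0.09 and Npy5r at -0.61, with an adjusted p of 1 for both in edgeR's test. In CeA, Npy2r was at -0.94 and Npy1r at 0.00221 without CeA WT 2, also with an adjusted p of 1 in edgeR's test. Over all alternatives the adjusted p of the cortical difference ran from 0.00153 to 1 for Npy2r and from 0.0499 to 1 for Npy5r. With sex read from Y-linked promoters the cortical differences were -0.23 for Npy2r, -0.12 for Npy5r, 0.01 for Npy1r and 0.03 for Npy. Without the 4 bulk libraries of doubtful sex, with WT 2 as the only WT library, they were -0.65, -0.34, -0.22 and -0.19. In CeA the same alternatives gave 0.48 and 0.29 for Npy1r, 0.33 and 0.07 for Npy5r and 0.14 and -0.05 for Npy, and turned the sign of Npy2r, to 0.15 and 0.05. Without the 4 libraries the KO by region difference was 0.70 for Npy2r, 0.51 for Npy1r, 0.40 for Npy5r and 0.14 for Npy. None of these was called by edgeR. The fear and KO comparisons each share their control or WT libraries with the comparison of SOM+ and bulk nuclei.

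**Figure D5:**
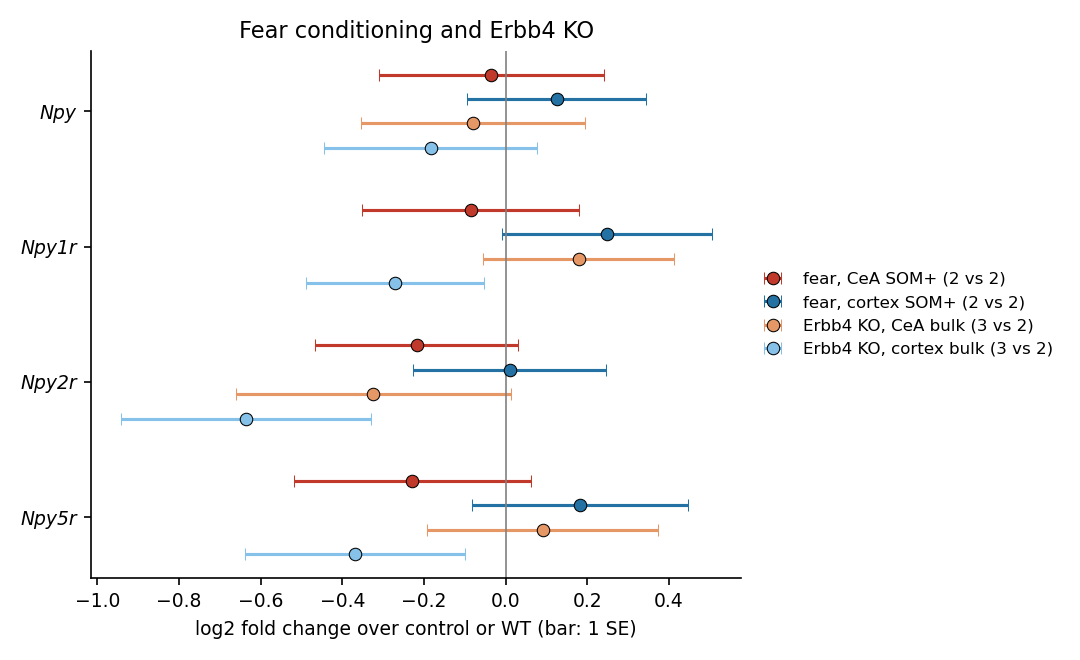
Log2 differences of fear conditioning over control in SOM+ nuclei (2 against 2 libraries) and of Erbb4 KO over WT in bulk nuclei (3 against 2), for each gene and region, with bars of 1 SE. The largest is Npy2r in cortex KO, at -0.64, and no value was called.

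Across the 8 group means, Npy had a pattern of its own among the 4 genes. Its Pearson r of log2 CPM was -0.25 with Npy1r, -0.30 with Npy2r and -0.03 with Npy5r, while the receptors had r = 0.977 for Npy1r with Npy2r, 0.973 for Npy1r with Npy5r and 0.952 for Npy2r with Npy5r. These describe 8 points that share the SOM+ and bulk split and the depth of the libraries. Such likeness was common: of 21305 windows with a mean of at least 5 CPM, 766 were more like Npy1r than its neighbour Npy5r was. The windows most like Npy were those of Scube1 (r = 0.992), Lats2 (0.991) and Tmem44 (0.988). Those most like Npy1r were Siah1b, Parp2 and Gtpbp8 (0.999 each), and those most like Npy2r were Dcbld2 (0.995), Zfp958 (0.994) and Tmtc3 (0.994, all r over 8 means). For Npy5r they were Akr1e1, Nfkbiz and Stx7 (0.999 each).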

How the data were processed

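ATAC-seq was measured in 18 libraries of 8 groups. The deposited values were raw read counts per promoter window (mm9), per the file headers. Bowtie2, MACS2, Picard 1.88, Trimmomatic 0.32 and bcl2fastq 2.16.0.10 appear in the submitters' processing notes. What counted the reads, and how duplicates, strand and the Tn5 offset were handled, is not given in the sources used here. Of 26728 entries, 663 repeated another window and were left out. Depth per library is given as its promoter count, since only promoter windows were deposited.

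Counts were tested across all windows with edgeR 4.0.16 (R 4.3.3) by quasi-likelihood tests with TMM scaling, filterByExpr (minimum count 10, minimum total 15) and Benjamini-Hochberg adjustment within each comparison. Windows with an adjusted p under 0.05 are written as called. The models numbered 3 and held the 8 SOM+ libraries (25157 windows), the 10 bulk libraries (25196) and all 18 (25246), with 4, 5 and 9 residual degrees of freedom. The last 2 had the labelled sex as a term. The scripts were tested on simulated data. Sequences came from a RefSeq promoter table of another build (GRCm38.p6), matched by gene symbol, and no coordinates were converted. Alternatives were total count scaling, limma 3.58.1 with cyclic loess, DESeq2 1.42.0, no filter, a replicate block, no sex term and leaving out each library. The 2 alternatives on Y-linked counts were added after seeing the data.

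The members, gene lists and tests were chosen with earlier results of these data known. The genes named are the 4 members, list genes called in SOM+ against bulk nuclei (up to 4 per direction, smallest p first; the uncalled Pyy and Ppy complete a list of 4 and were named after their values were seen), windows within 500 kb, and for each member the 3 most similar windows, predicted genes left out. Erbb4, Gad1 and Sst are checks of the labels.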

Additional observations from a re-analysis of the deposited data

Results flagged for a closer look

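In SOM+ cortex nuclei, the Npy level of control library 2, 29.28 CPM, lay far below the other 3 libraries for the range of the group (35.8 to 36.9 CPM). In SOM+ CeA nuclei, the Npy5r level of control library 1, 17.74 CPM, lay far above the other 3 (12.7 to 13.2 CPM). Both were marked by the gap to the nearest library relative to the whole range (Dixon's criterion at 95%). The 4 genes in 4 settings gave 16 groups tested, and chance marks about 1 in 20.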

How the results depend on the processing

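The 3 receptor differences between SOM+ control and bulk WT nuclei kept their sign and their call under all 26 alternatives: -2.04 to -1.56 for Npy1r, -1.54 to -1.02 for Npy2r and -2.14 to -1.74 for Npy5r. Of 476 alternative values of the 28 member results with a test, 438 kept sign and call, 36 turned their sign, all of differences that were not called, and 2 became called. The region differences kept their sign under every alternative run. No alternative scaled by closed promoters, for the region differences or for SOM+ against bulk nuclei. Relative to the median olfactory receptor promoter, the receptor genes stood lower in CeA SOM+ than in cortex SOM+ nuclei. The values were 8.43 against 9.48 for Npy1r, 10.2 against 12.9 for Npy2r and 5.74 against 9.64 for Npy5r. In bulk nuclei they were 11.96 against 17.52 for Npy1r, 10.88 against 13.81 for Npy2r and 10.67 against 16.65 for Npy5r. The receptor genes thus stood lower in CeA in both kinds of nuclei on this scale. Between SOM+ control and bulk WT libraries, Npy1r stood at 9.04 against 13.67 and Npy2r at 12.15 against 13.06. Npy5r stood at 7.5 against 13.14 and Npy at 12.48 against 4.86. Cyclic loess moved the difference between the region contrasts to 1.83 for Npy1r and -0.758 for Npy.

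Signs turned as follows, with no cause tested. Npy in SOM+ against bulk nuclei was -0.109 under total count scaling, -0.106 under cyclic loess and -0.126 without the 4 libraries of doubtful sex. Npy2r for fear in cortex was -0.00813 in DESeq2 and -0.00521 without a filter. The Npy interaction of KO and region was -0.0413 under total count scaling. Without the sex term Npy was 0.117 for KO in CeA and 0.00467 in cortex. With sex from Y-linked counts, KO in CeA was 0.145 for Npy2r and 0.142 for Npy, and KO in cortex was 0.0338 for Npy and 0.0126 for Npy1r. Npy2r for KO in CeA was 0.0473 without the 4 libraries.

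Each library was then left out in turn. For fear in CeA, the log2 differences ran from -0.25 to 0.0831 for Npy, -0.225 to 0.0707 for Npy1r, -0.382 to -0.0681 for Npy2r and -0.43 to 0.025 for Npy5r. For fear in cortex they ran from -0.0456 to 0.285 for Npy, -0.101 to 0.611 for Npy1r, -0.259 to 0.31 for Npy2r and -0.0927 to 0.492 for Npy5r. For the interaction of fear and region they ran from -0.375 to -0.00191 for Npy, -0.697 to 0.0155 for Npy1r, -0.527 to 0.0405 for Npy2r and -0.725 to -0.141 for Npy5r. For KO in CeA the range was -0.16 to 0.01 for Npy, 0.00221 to 0.281 for Npy1r, -0.938 to -0.121 for Npy2r (the low ends of Npy2r and Npy1r both without CeA WT 2) and -0.0151 to 0.195 for Npy5r. For KO in cortex it was -0.307 to -0.0617 for Npy, -0.496 to -0.167 for Npy1r, -1.13 (without KO 3) to -0.0942 (without WT 2) for Npy2r and -0.66 to -0.111 for Npy5r. For the interaction of KO and region it was -0.0182 to 0.194 for Npy, 0.325 to 0.633 for Npy1r, -0.122 to 0.755 for Npy2r and 0.204 to 0.717 for Npy5r. Windows called numbered 0 to 4 for fear in CeA, 0 to 3 in cortex and 0 to 3 for the interaction, 0 to 1 for KO in CeA, 0 to 984 in cortex (984 without cortex KO 3) and 0 to 2 for the interaction, and 889 to 6991 for CeA against cortex in bulk nuclei (4253 with all libraries, 645 without the 4 of doubtful sex). A group left with 1 library is assumed to vary like the others.

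Libraries share replicate numbers, which the labels tie to no shared animal or day. Same-numbered deviations correlated at 0.0322 (CeA) and 0.333 (cortex) for fear, and at -0.29 and -0.352 (CeA) and 0.469 and -0.276 (cortex) for KO. Between regions they correlated at 0.197 (SOM+ control), 0.0807 (SOM+ fear), -0.313, 0.308 and -0.0821 (bulk KO) and 0.406 (bulk WT), so not every pair deviated together. In SOM+ nuclei the number also stands for the labelled sex. A replicate block gave 3 windows called for KO in CeA and 3 in cortex, against 0 without it, 12622 against 12143 for the region in SOM+ nuclei and 4282 against 4253 in bulk nuclei, and changed no member's call or sign. With 2 or 3 libraries per group, the intervals in the report are per gene and unadjusted, so they do not show which changes would be called. Of windows simulated with a 1.5-fold change, 6% were called for fear in CeA and 8.1% in cortex. For KO these shares were 1% in CeA and 2% in cortex.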
